A study of Homo sapiens with 13 samples.

Results

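The genes described here encode 9 enzymes that make serine, asparagine and proline and feed the mitochondrial one-carbon pathway: PHGDH, PSAT1 and PSPH, ASNS, SHMT2 and MTHFD2, ALDH18A1 and PYCR1, and PCK2. They were chosen by pathway, with earlier results of these data known, and all 9 were found among 59204 gene identifiers in the count tables. K562, an established chronic myeloid leukaemia line, was grown in RPMI medium with serum and labelled for 12 h with 30 µM 4-thiouridine (4sU), a uridine analogue that cells build into new RNA, with the medium exchanged every 3 h. The 4sU was then washed out and chased with 3 mM uridine for 0, 1, 2, 4, 8 or 12 h, with 2 libraries at each time and 1 library from cells without 4sU. Alkylation of 4sU with iodoacetamide turns it into a T-to-C change in the read (SLAM-seq), and the reads the authors called nascent are named labelled reads below.

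Serine is made from a glycolytic intermediate in the cytosol, where PHGDH carries out the first and committed step, PSAT1 transfers the amino group and PSPH removes the phosphate. SHMT2 then splits serine into glycine and a one-carbon unit inside mitochondria, and MTHFD2 oxidises that unit for later use in nucleotide synthesis. ALDH18A1 and PYCR1 catalyse the first and last steps from glutamate to proline, ASNS makes asparagine from aspartate with glutamine as nitrogen donor, and PCK2 makes phosphoenolpyruvate from oxaloacetate in mitochondria. Genes of this group are widely known as targets of ATF4, the transcription factor of the integrated stress response, which rises when amino acids run short. RPMI itself supplies serine, asparagine and proline.

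Total counts per library ran from 9004529 to 17425584, with the library without 4sU the deepest, and the 9 genes together took 0.117% and 0.123% of all reads at 0 h and less at 12 h (0.0961% and 0.0980%) and in the absence of 4sU (0.0734%). All 9 K562 markers were read in every library, with a summed level of 9157 to 12441 CPM, meaning reads per 1000000 reads counted, during the chase and 4095 CPM without 4sU. The 5 lymphocyte markers summed to 17.7 to 36.0 CPM in the chase and 36.2 CPM without 4sU, nearly all of it CD3D, while CD3E and MS4A1 reached at most 2 reads and 1 read in any library. The 5 granulocyte and monocyte markers summed to 5.10 to 11.8 CPM in the chase and 16 CPM without 4sU. LYZ gave most of the sum without 4sU, at 15.3 CPM, and ELANE led it in the second 8 h library, at 6.81 CPM, while MPO reached at most 4 reads and CSF1R at most 2 reads. The Drosophila spike-in took 5.77% to 7.30% of reads in the chase libraries and 9.36% without 4sU. Its own gene composition also split the libraries, and the first principal component of 597 abundant spike-in genes (68.4% of their variance) put 7 chase libraries on one side and 5 on the other. The 5 were the second 4 h library and all libraries of 8 h and 12 h, with the library without 4sU on their side, so this split runs largely with chase time.

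On GRCh38, with the gene spans of GENCODE 29, PHGDH lies on chromosome 1 from 119648411 to 119744226, PSAT1 on chromosome 9 from 78297143 to 78330093 and MTHFD2 on chromosome 2 from 74198562 to 74217565, all on the plus strand. SHMT2 lies on chromosome 12 from 57229327 to 57234935 and PCK2 on chromosome 14 from 24094053 to 24110598, also on the plus strand. The minus strand holds ASNS on chromosome 7 from 97852118 to 97872542, PSPH on chromosome 7 from 56011051 to 56051604, ALDH18A1 on chromosome 10 from 95605929 to 95656706 and PYCR1 on chromosome 17 from 81932384 to 81942412.

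The promoter stretch of ASNS is shown because ASNS had the highest level relative to cells without 4sU and because its upstream region is a textbook site of ATF4 action. The letters searched were TGATGNAA, on both strands, which spell the composite element bound by C/EBP and ATF proteins. In RefSeq promoters of GRCh38.p14, which run from 250 bases before to 50 bases after a start, 6 of the 9 genes had an entry (PHGDH, PSAT1, ASNS, MTHFD2, ALDH18A1 and PCK2). The element was found in 1270 of 35116 promoters (3.62%), and among these 6 genes only at 1 of the 2 listed ASNS starts. Capitals mark the element, which spans 68 to 61 bases before that start, and the 30 bases shown are chr7:97872458-97872487, read on the minus strand of GRCh38.p14:
ASNS: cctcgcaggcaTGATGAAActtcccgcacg
A match of letters is a description and does not show that a factor was bound there in K562, and the absence of these letters from the other windows says nothing about ATF4 at those genes.

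The first comparison asked how fast the labelled RNA of each enzyme was lost, and 8 of the 9 enzymes lost it more slowly than the median gene. Over all genes the labelled share of reads went from 35.9% and 36.1% at 0 h to 10.9% and 10.6% at 12 h. Summed over the 9 enzymes it went from 45.2% and 47.0% to 19.8% and 18.9%. Without 4sU all 9 genes had 0 labelled reads, among 520 reads for PSPH up to 4246 for PYCR1, which allows a background share of up to 0.577% and 0.0707% respectively. These limits and all intervals of shares cover counting error only.

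In the serine pathway, PSAT1 began the chase with 64.7 and 77.8 CPM of labelled reads, held 74.6 and 81.5 CPM at 2 h, and then went to 58.6 and 69.8 CPM at 4 h, 42.2 and 41.1 CPM at 8 h and 20.9 and 18.3 CPM at 12 h. PSPH went from 26.5 and 23.9 CPM at 0 h through 23.7 and 19.3 CPM at 4 h to 6.60 and 6.08 CPM at 12 h. In both genes the 12 h libraries lie below every earlier one, an order that was not counted over all genes, and nearly all of the loss came after 2 h. PHGDH had few labelled reads, 47 and 68 at 0 h and 32 and 45 at 12 h, or 4.67 and 7.55 CPM against 2.78 and 3.51 CPM. Its replicates at 4 h stood apart, at 3.13 and 6.08 CPM, so 2 libraries of 1 time differ here by about as much as the 0 h and 12 h means do.

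ASNS was the slowest of the group. Its labelled level was 128 and 137 CPM at 0 h, 125 and 129 CPM at 1 h, 119 and 133 CPM at 2 h, 113 and 117 CPM at 4 h, 86.4 and 95.9 CPM at 8 h and 61.4 and 69.0 CPM at 12 h. The libraries of 8 h lie below all earlier ones and those of 12 h below those of 8 h. SHMT2 went from 49.0 and 46.4 CPM at 0 h to 40.2 and 46.8 CPM at 4 h and 22.4 and 22.2 CPM at 12 h. MTHFD2, the next enzyme of the mitochondrial pathway, went from 148 and 173 CPM through 131 and 148 CPM at 4 h and 87.4 and 89.6 CPM at 8 h to 37.1 and 30.7 CPM at 12 h. For both genes every 12 h library lies below every earlier one. How many of all genes show such an order of labelled CPM, here and for ASNS, was not counted.

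For the proline pair, labelled ALDH18A1 went from 11.9 and 12.2 CPM at 0 h to 3.91 and 3.20 CPM at 12 h, and labelled PYCR1 from 94.2 and 94.8 CPM to 34.7 and 32.2 CPM. The labelled pool of PCK2 was the smallest and went lowest: 39 and 41 reads at 0 h (3.88 and 4.55 CPM), 33 and 32 reads at 4 h, 10 and 15 reads at 8 h and 5 and 8 reads at 12 h (0.435 and 0.624 CPM).

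**Figure D1:**
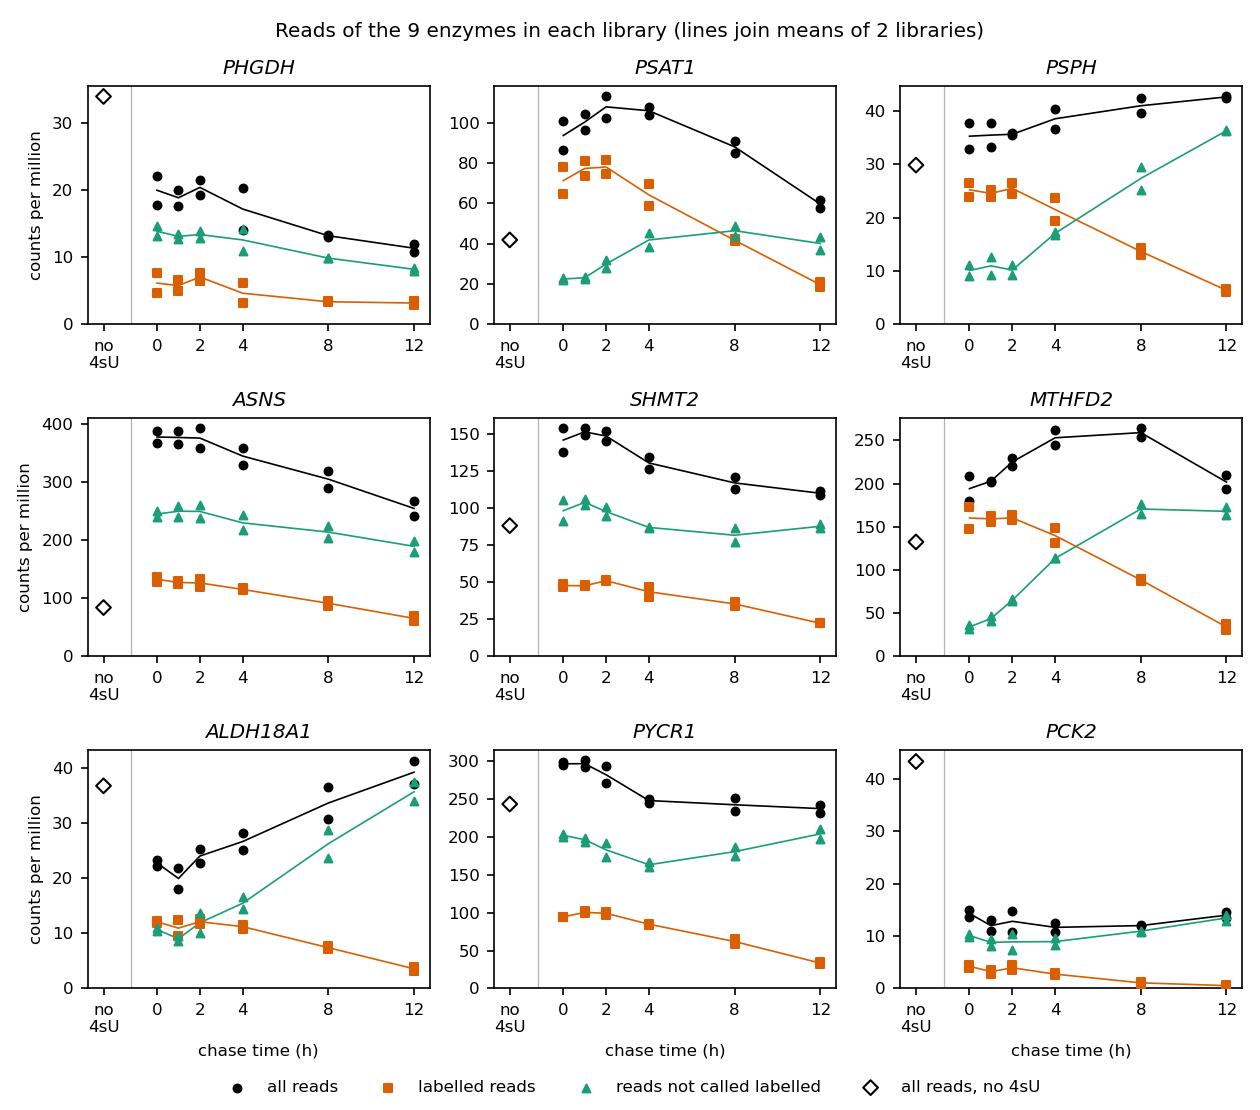
CPM of all reads (black circles), labelled reads (orange squares) and reads not called labelled (green triangles) against chase time in hours for each enzyme, with lines through the means of 2 libraries and an open diamond for all reads without 4sU. Labelled reads fall in each panel, the unlabelled pool of MTHFD2, PSPH and ALDH18A1 is higher at 12 h than at 0 h while that of ASNS and PHGDH is lower, and the diamond lies far below the chase libraries for ASNS and far above them for PCK2.

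Loss was tested as the slope of a fit of labelled counts over the chase, in log2 units per hour and relative to the total library, against the median slope of −0.25 over 9652 genes (edgeR quasi-likelihood test, two-sided, Benjamini-Hochberg adjusted). Of these genes 36.8% were lost more slowly and 36.0% faster than the median at an adjusted p under 0.05, and of the 9 enzymes 8 were slower and 0 faster. ASNS had a slope of −0.098 ± 0.0074 (SE; adjusted p = 5.9e-15 by edgeR), SHMT2 −0.11 ± 0.010 (adjusted p = 1.2e-11) and PHGDH −0.11 ± 0.023 (adjusted p = 1.2e-05). PYCR1 followed at −0.14 ± 0.010 (adjusted p = 2.5e-09) and ALDH18A1 at −0.15 ± 0.018 (adjusted p = 3.7e-05). PSAT1, PSPH and MTHFD2 were closer to the median, at −0.17, −0.18 and −0.19, with adjusted p of 3.3e-05, 2.0e-04 and 0.00177 by edgeR. PCK2, at −0.26 ± 0.030, was not told apart from the median gene (adjusted p = 0.668 by edgeR). With the side of the spike-in split as a factor, PSAT1 and MTHFD2 no longer passed (adjusted p = 0.171 and 0.787 by edgeR), and over 0 to 4 h alone PHGDH did not (adjusted p = 0.560). The labels do not say whether the 2 libraries of a time come from separate cultures, so all p-values measure only the spread between these libraries.

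As half-lives, from an exponential fitted to the labelled reads, the order was ASNS at 10.3 h (95% interval 9.07 to 11.7), SHMT2 at 9.68 h (7.86 to 11.9), PHGDH at 8.88 h (5.20 to 15.1), PYCR1 at 7.37 h (6.08 to 8.92) and ALDH18A1 at 7.07 h (5.29 to 9.43). PSAT1 came next at 6.13 h (4.82 to 7.79), then PSPH at 6.01 h (4.83 to 7.49), MTHFD2 at 5.71 h (4.51 to 7.23) and PCK2 at 3.97 h (3.05 to 5.15). Neighbours in this order overlap in their intervals throughout. The interval of ASNS lies above those of PYCR1, PSAT1, PSPH, MTHFD2 and PCK2, although these differences were not tested. The median of the 9 was 7.07 h, beside 4.20 h over all 9652 genes, with 10% of genes under 2.26 h and 10% over 10.4 h. ASNS therefore outlasted 89.9% of genes, MTHFD2 69.3% and PCK2 45.6%.

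**Figure D2:**
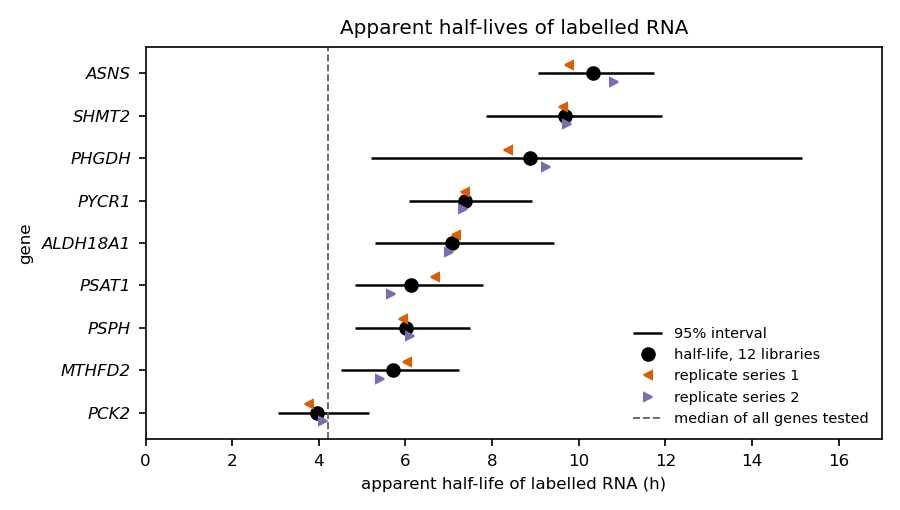
Apparent half-life of labelled RNA in hours for each enzyme, with the fit over 12 libraries as a circle, its 95% interval as a bar, and the fits of the 2 replicate series as triangles. The dashed line is the all-gene median of 4.20 h. PCK2 at 3.97 h is the only circle below it, and the triangles of each gene lie inside its bar.

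These half-lives are apparent, since they are relative to the total library, which includes RNA made during the chase. In addition, the labelled reads did not decline steadily from the start. At 2 h labelled MTHFD2 was at 157 and 163 CPM and labelled PYCR1 at 97.0 and 101 CPM, within or above their levels at 0 h. Fitted to 0 to 4 h alone, the all-gene median rose to 5.84 h, PCK2 was at 6.76 h and ASNS, PSAT1, PSPH, MTHFD2 and PYCR1 lay between 12.6 h and 13.4 h. For PHGDH, SHMT2 and ALDH18A1 that window gave only lower limits, of 1.09 h, 5.76 h and 2.77 h, because their upper bounds were over 48 h. Fitted to 2 to 12 h they ran from 3.21 h for PCK2 to 9.65 h for ASNS, with an all-gene median of 3.74 h. Scaled to the spike-in, ASNS reached 16.8 h and SHMT2 15.2 h against an all-gene median of 5.01 h, with PCK2 at 4.67 h. In the fits to 2 to 12 h and to the spike-in PCK2 was the shortest of the 9.

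The labelled share of a gene's own reads falls both when labelled reads are lost and when unlabelled reads are gained. PHGDH kept its share, at 26.3% and 34.2% at 0 h and 26% and 29.4% at 12 h, with overlapping values, while its unlabelled reads also went down. ASNS went from 34.9% and 35.3% to 25.4% and 25.8%, and SHMT2 from 31.8% and 33.7% to 20.1% and 20.4%. The share of PYCR1 went from 32.0% and 31.7% to 14.9% and 13.3%, that of PSAT1 from 74.7% and 77.3% to 36.2% and 29.7%, and that of ALDH18A1 from 53.6% and 52.6% to 9.47% and 8.61%. PSPH fell from 70.4% and 72.6% to 15.4% and 14.3% and MTHFD2 from 82.3% and 82.6% to 17.7% and 15.8%. PCK2 ended lowest, at 3.25% and 4.28% from 28.3% and 30.6%. Apart from PHGDH, the 0 h and 12 h values of each gene do not overlap, which held for 95.6% of the 9652 genes, with 12 h below 0 h. Set against each gene's own total, ASNS and SHMT2 lengthened to 29.5 h and 21.8 h and PSAT1 to 9.76 h, and for PHGDH only a lower limit of 10.5 h could be read. MTHFD2, ALDH18A1 and PCK2 were at 5.48 h, 4.89 h and 4.40 h on this measure, beside an all-gene median of 3.79 h.

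The shares at 0 h fell into a high and a low range: pooled over the 2 libraries, MTHFD2, PSAT1 and PSPH were at 82.5%, 76.0% and 71.4%, ALDH18A1 at 53.1%, and ASNS, SHMT2, PYCR1, PHGDH and PCK2 between 29.4% and 35.1%. Over 8393 of the 9652 genes tested (87.0%), the median share at 0 h was 59.3%. A read can be called labelled only where it covers uridines, and the libraries read the 3′ end, so the uridine content of the last 250 bases of each principal transcript was set beside the share. This measure was chosen after the shares were seen. It was 42.0% for PSAT1, 36.4% for MTHFD2, 33.2% for PSPH and 32.4% for ALDH18A1, against 28.0% for SHMT2 and for PYCR1, 24.8% for ASNS, 22.8% for PHGDH and 22.4% for PCK2, with an all-gene median of 31.6%. The rank correlation between uridine content and share was 0.93 over the 9 enzymes and 0.55 over the 8393 genes. It was −0.10 between uridine content and the decay slope over those genes. All points come from the same 2 libraries, and the part that uridine content plays in the shares was not tested.

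**Figure D3:**
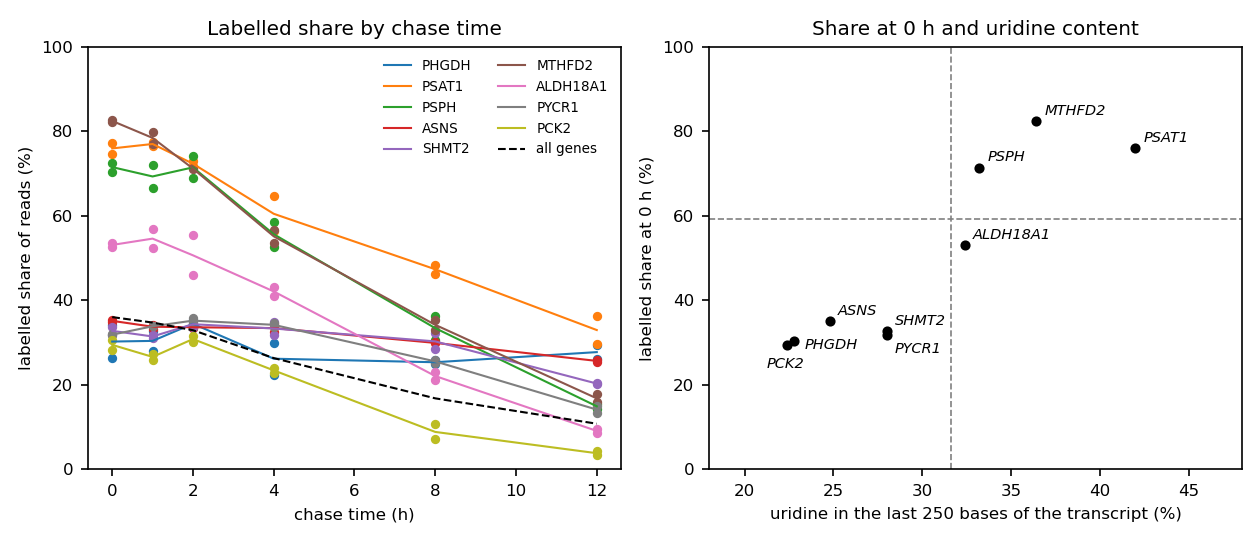
Left, labelled share of each enzyme's reads in percent against chase time in hours, with points for libraries, lines through means and a dashed line for all genes. Right, labelled share at 0 h, pooled over 2 libraries, against uridine content of the last 250 bases, with dashed all-gene medians of 31.6% and 59.3%. MTHFD2, PSAT1 and PSPH start at 71.4% or more and have 33.2% uridine or more, while the 5 genes with 28.0% uridine or less start at 35.1% or less.

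The second comparison set all reads of cells at the end of the 12 h pulse against cells without 4sU. It shows 5 enzymes higher and 3 lower. ASNS was read at 367 and 387 CPM at 0 h and at 83.8 CPM without 4sU, PSAT1 at 86.6 and 101 CPM against 41.8 CPM, SHMT2 at 154 and 138 CPM against 88.1 CPM and MTHFD2 at 179 and 209 CPM against 132 CPM. In these 4 genes both 0 h libraries lie above the library without 4sU. PYCR1, at 295 and 299 CPM against 244 CPM, and PSPH, at 37.7 and 32.9 CPM against 29.8 CPM, lie above it by less. Below it lie PCK2, at 13.7 and 14.9 CPM against 43.3 CPM, PHGDH, at 17.8 and 22.1 CPM against 33.9 CPM, and ALDH18A1, at 22.3 and 23.2 CPM against 36.7 CPM.

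Of the 16255 genes tested, 33.5% were higher and 31.8% lower at 0 h than without 4sU at an adjusted p under 0.05 (edgeR, all 13 libraries as 7 groups), and no test sets the 5 and 3 enzymes apart from these shares. In bulk RNA a lower level per cell and fewer cells that carry the transcript cannot be told apart. ASNS was 4.33-fold higher (log2 2.12 ± 0.10 SE, adjusted p = 6.0e-16), which was the largest rise of the 9. PSAT1 was 2.15-fold higher (adjusted p = 4.7e-10 by edgeR), SHMT2 1.60-fold (adjusted p = 6.9e-07), MTHFD2 1.41-fold (adjusted p = 2.4e-05) and PYCR1 1.17-fold (adjusted p = 0.0149). PSPH, at log2 0.19 ± 0.13, did not pass (adjusted p = 0.184 by edgeR). PCK2 was 3.15-fold lower (log2 −1.66 ± 0.16, adjusted p = 6.6e-10 by edgeR), PHGDH 1.77-fold lower (adjusted p = 1.1e-04) and ALDH18A1 1.68-fold lower (adjusted p = 3.2e-05). PHGDH, which opens the serine pathway, was thus lower while PSAT1, its next enzyme, was higher, and ALDH18A1 and PYCR1 also went opposite ways.

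The library without 4sU has no replicate, was assumed to vary like the others, and also differs in depth and spike-in share, which cannot be told apart from the absence of 4sU. No medium exchange or uridine chase is recorded for it, so a difference in handling or fresh medium cannot be told apart either. Scaled to the spike-in, the median of all genes moved from 0.06 to 0.54 on the log2 scale, 6 enzymes were higher (PSPH among them) and PCK2 alone was lower. PHGDH also lost its call with the side of the spike-in split as a factor (log2 −0.25, adjusted p = 0.388 by edgeR).

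The third comparison followed all reads through the chase. At 1 h none of the 9 passed the test. The log2 changes from 0 h ran from −0.23 for PCK2 to 0.13 for PSAT1, the smallest adjusted p was 0.793 by edgeR, 0 of 9 had an unadjusted p under 0.05, and DESeq2 also called 0. Over all genes 0.320% were higher and 0.0369% lower at 1 h.

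By 4 h MTHFD2 had risen and PYCR1, SHMT2 and ASNS had fallen, while 16.7% of all genes were higher and 15.5% lower. MTHFD2 stood at 244 and 262 CPM against 179 and 209 CPM at 0 h (log2 0.30 ± 0.071 SE, adjusted p = 0.00211 by edgeR). PYCR1 stood at 246 and 251 CPM against 295 and 299 CPM (log2 −0.35 ± 0.067, adjusted p = 2.1e-04 by edgeR). For both, the libraries of the 2 times do not overlap, as is also so for SHMT2, ASNS, PSAT1, ALDH18A1 and PCK2. The share of all genes for which this holds was not counted. SHMT2 (127 and 134 CPM) and ASNS (329.9 and 359 CPM) changed by −0.25 and −0.22 on the log2 scale, with adjusted p of 0.0123 and 0.0231 by edgeR. Of the 13 fits that left out a library, the call for ASNS was lost in 3 and that for SHMT2 in 2. Without the first 0 h, second 0 h or first 4 h library ASNS did not pass, at log2 −0.22, −0.18 and −0.15 (adjusted p = 0.0782, 0.132 and 0.207 by edgeR), so its size was kept in the first case and smaller in the others. SHMT2 did not pass without the first 0 h or first 4 h library, at log2 −0.13 and −0.20 (adjusted p = 0.318 and 0.0958 by edgeR). Without the second 4 h library PHGDH and PCK2 were also lower, which makes 5. Scaled to the spike-in, 0 enzymes were lower at 4 h.

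By 12 h, 5 enzymes had fallen and ALDH18A1 had risen, beside 29.1% of all genes lower and 27.0% higher. PHGDH fell from 17.8 and 22.1 CPM to 10.7 and 11.9 CPM, or 1.95-fold (log2 −0.96 ± 0.16 SE, adjusted p = 1.3e-05 by edgeR). PSAT1 was at 102 and 114 CPM at 2 h, which was not tested, and at 104 and 108 CPM at 4 h. Its change from 0 h to 4 h did not pass (log2 0.091 ± 0.080 SE, adjusted p = 0.425 by edgeR). It was at 91.1 and 85.0 CPM at 8 h and ended at 57.9 and 61.5 CPM, 1.74-fold below 0 h (adjusted p = 4.5e-09 by edgeR). ASNS went from 367 and 387 CPM through 289.9 and 319.7 CPM at 8 h to 242 and 267 CPM, 1.64-fold below 0 h (log2 −0.72 ± 0.074, adjusted p = 4.3e-09 by edgeR). For each of these 3 genes, and for SHMT2, both 12 h libraries lie below every library of 0 to 8 h. The share of all genes with this order was not counted.

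SHMT2 fell 1.47-fold to 111 and 108 CPM (adjusted p = 6.0e-07 by edgeR) and PYCR1 1.39-fold to 232 and 243 CPM (adjusted p = 9.0e-07 by edgeR), and PYCR1 had most of that change behind it by 4 h. ALDH18A1 rose from 22.3 and 23.2 CPM at 0 h to 28.1 and 25.1 CPM at 4 h, 36.5 and 30.8 CPM at 8 h and 41.3 and 37.1 CPM at 12 h, or 1.55-fold (log2 0.64 ± 0.12, adjusted p = 5.0e-05 by edgeR). MTHFD2 peaked at 264 and 254 CPM at 8 h and came back to 209.6 and 194 CPM, which does not differ from 0 h by the test (adjusted p = 0.277 by edgeR). PSPH, at 42.8 and 42.4 CPM, and PCK2, at 13.4 and 14.6 CPM, did not pass either (log2 0.12 ± 0.10 and −0.18 ± 0.15, adjusted p = 0.335 and 0.338 by edgeR). The groups of 0 h and 12 h overlap for MTHFD2 and PCK2.

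Scaled to the spike-in, the median of all genes between 0 h and 12 h was 0.36 instead of −0.06 on the log2 scale. On that scale PHGDH, PSAT1 and ASNS were lower, and ALDH18A1, PSPH and MTHFD2 were higher, so MTHFD2 changed sign (log2 0.32, adjusted p = 0.00553 by edgeR). The spike-in took a falling share of reads over the chase, 7.15% and 7.13% at 0 h and 6.26% and 5.77% at 12 h. PHGDH, PSAT1, ASNS and ALDH18A1 had the same direction and passed on both scales. SHMT2 and PYCR1 kept their direction but did not pass with the spike-in (log2 −0.14 and −0.05, adjusted p = 0.276 and 0.693 by edgeR). PSPH kept its direction and passed only with the spike-in (log2 0.54).

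**Figure D4:**
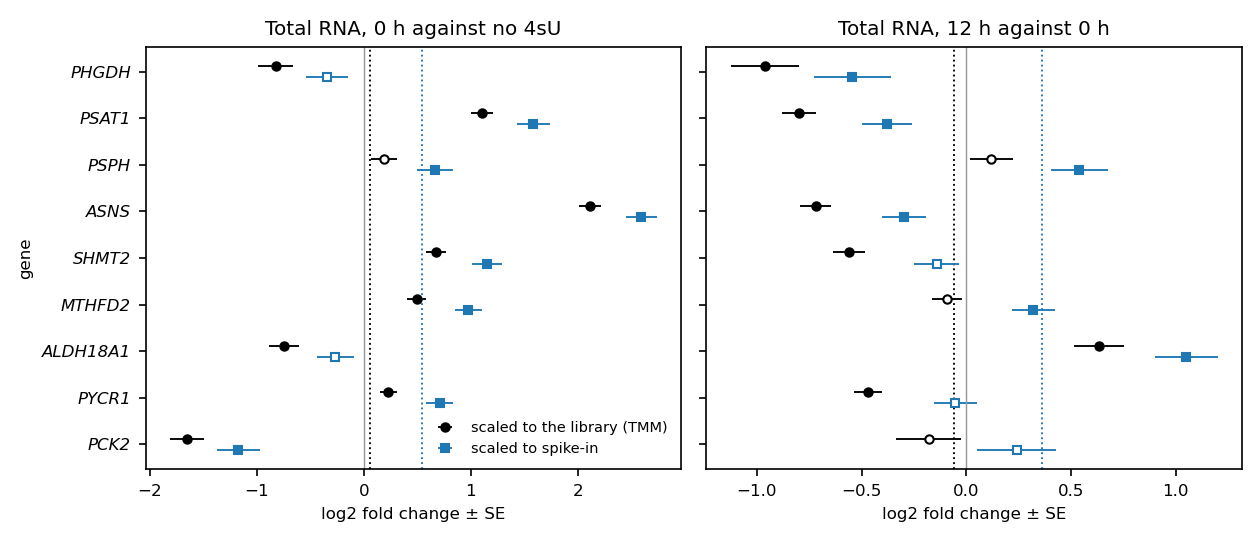
Log2 fold change ± SE of all reads for each enzyme, at 0 h against no 4sU (left) and at 12 h against 0 h (right), scaled to the library (black circles) or to the spike-in (blue squares). Filled symbols passed an adjusted p under 0.05, and dotted lines mark the median of all genes on each scale. ASNS stands at 2.12 and PCK2 at −1.66 on the left, and PHGDH at −0.96 and ALDH18A1 at 0.64 on the right, in black.

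The reads not called labelled divide the group further. Those of MTHFD2 went from 31.7 and 36.3 CPM at 0 h to 113 and 114 CPM at 4 h and 173 and 163 CPM at 12 h, those of PSPH from 11.1 and 9.0 CPM to 36.2 and 36.3 CPM, and those of ALDH18A1 from 10.3 and 11 CPM to 37.4 and 33.9 CPM. Unlabelled PSAT1 went from 22 and 22.9 CPM to 48.9 and 43.9 CPM at 8 h and was at 36.9 and 43.2 CPM at 12 h. For these 4 genes, and for PCK2, the 12 h libraries lie above the 0 h libraries, as they do for 82.3% of the 9652 genes. Unlabelled ASNS, by contrast, went from 239 and 250.4 CPM to 180.1 and 198 CPM and unlabelled PHGDH from 13.1 and 14.5 CPM to 7.91 and 8.42 CPM. For these 2 genes and SHMT2 the 12 h libraries lie below the 0 h libraries, as they do for 11.5% of genes. Unlabelled PYCR1 was at 201 and 204 CPM at 0 h, 160.4 and 166 CPM at 4 h and 198 and 211 CPM at 12 h. Reads not called labelled can hold RNA left from before the pulse, RNA made after the wash and RNA whose reads missed a conversion. The counts do not divide these.

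At 12 h 4 enzymes were higher and 3 lower than without 4sU. ASNS was still 2.63-fold higher (log2 1.40 ± 0.099 SE, adjusted p = 4.1e-12 by edgeR), and PCK2 and PHGDH 3.57-fold and 3.45-fold lower (adjusted p = 1.3e-10 and 1.4e-09 by edgeR). MTHFD2 was 1.32-fold higher (adjusted p = 4.1e-04 by edgeR) and PSAT1 1.24-fold (adjusted p = 0.0143), with PSPH at 1.24-fold and PYCR1 at 1.18-fold lower (adjusted p = 0.0355 and 0.0139). SHMT2 and ALDH18A1, at log2 0.11 ± 0.094 and −0.11 ± 0.13, did not pass (adjusted p = 0.319 and 0.497 by edgeR). Of all genes 26.2% were higher and 24.9% lower. Scaled to the spike-in, where the all-gene median was 0.95 instead of 0.05, 7 enzymes were higher and 2 lower. On that scale PYCR1 turned to higher (log2 0.66, adjusted p = 6.6e-06 by edgeR), SHMT2 and ALDH18A1 were higher (log2 1.01 and 0.78, adjusted p = 2.2e-09 and 6.7e-05), and PCK2 and PHGDH were still lower. The call for PSPH was lost without the first or second 12 h library (adjusted p = 0.0906 and 0.0529 by edgeR) and by DESeq2 (adjusted p = 0.0932), although its size, log2 0.31, 0.35 and 0.31, stayed near the 0.31 of all libraries. That for PYCR1 was lost without the first 12 h library (log2 −0.21, adjusted p = 0.0883 by edgeR). This comparison, that of 0 h with no 4sU and that of 12 h with 0 h share libraries, so their values are set side by side and are not independent.

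Across the 13 libraries the 9 genes did not follow 1 pattern. Of the 36 pairwise correlations of log2(CPM + 1), 19 were negative, with a median of −0.07 and a range from −0.96 for PHGDH with PSPH to 0.89 for ASNS with PSAT1. The 13 points share library depth and chase time, and the values are descriptions. The genes whose total level was most like the mean of the 9, among 9766 others with at least 5 CPM on average, were LCOR (r = 0.97), MAP1B, MKNK2, ENSG00000258634 and POU2F1 (r = 0.94 each).

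Related enzymes of the same pathways gave mixed counts, which were not tested against the shares over all genes, 36.8% slower and 36.0% faster in decay, and 33.5% higher and 31.8% lower at 0 h than without 4sU. Of 14 folate one-carbon enzymes 10 could be tested for decay, with 5 slower and 2 faster than the median gene and a median slope of −0.17. Among 12 tested in total RNA 4 were higher and 6 lower at 0 h than without 4sU, with a median log2 change of −0.25 beside 0.06 over all genes. The paralogues of the mitochondrial enzymes were looked up after their values had been seen. Cytosolic SHMT1 was at 13.9 and 12.9 CPM at 0 h and 24.4 CPM without 4sU (log2 −0.92 ± 0.17 SE, adjusted p = 3.6e-05 by edgeR), opposite to SHMT2. Cytosolic MTHFD1 was at 66.4 and 66.6 CPM against 195 CPM (log2 −1.60 ± 0.088, adjusted p = 8.8e-15 by edgeR), opposite to MTHFD2. Mitochondrial MTHFD2L, at 51.4 and 53.9 CPM against 28.9 CPM (log2 0.81 ± 0.12, adjusted p = 8.1e-07 by edgeR), went the way of MTHFD2.

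Of 11 further proline and ornithine enzymes, 6 of 7 tested were slower than the median and 0 faster (median slope −0.11), and 1 of 8 was higher and 4 were lower at 0 h than without 4sU. For this and the following lists, the shares over all genes were 36.8% slower, 36.0% faster, 33.5% higher and 31.8% lower. Of 13 enzymes of aspartate, asparagine and glutamine metabolism, 4 of 8 tested were slower and 1 faster (median slope −0.16), and 2 of 10 were higher and 4 lower at 0 h. ASRGL1, which breaks asparagine down, had a half-life of 10.7 h, close to that of ASNS. Among 12 enzymes of glycine cleavage and serine use, 3 of 4 tested were slower and 1 faster (median slope −0.18), and 2 of 9 were higher and 6 lower (median log2 −0.97). Of 9 phosphoenolpyruvate and gluconeogenesis enzymes 3 could be tested for decay and all 3 were slower (median slope −0.14), with 2 of 4 higher and 1 lower at 0 h. PCK1, the cytosolic counterpart of PCK2, had at most 0.746 CPM in any library.

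Of 20 regulators of the integrated stress response 16 could be tested for decay, with 10 faster and 4 slower than the median gene, beside 36.0% and 36.8% of all genes, and a median slope of −0.54. CHAC1 and DDIT4 had the shortest half-lives, 0.863 h and 1.08 h, and EIF2AK1 and EIF2AK2, 2 of the kinases that start the response, the longest, 7.03 h and 7.91 h. At 0 h 10 of 20 were higher and 3 lower than without 4sU, beside 33.5% and 31.8% of all genes, with a median log2 change of 0.25. ATF4 itself was at 733 and 739 CPM at 0 h and 328 CPM without 4sU (log2 1.11 ± 0.088 SE, adjusted p = 1.6e-11 by edgeR), and through the chase at 948 and 1055 CPM at 4 h, 977 and 1026 CPM at 8 h and 859 and 786 CPM at 12 h. The change from 0 h to 12 h did not pass (log2 0.01, adjusted p = 0.91 by edgeR), and the libraries of 4 h and 8 h lie above those of both times. CHAC1 fell by 3.55 on the log2 scale between 0 h and 12 h (adjusted p = 1.4e-12 by edgeR), from 14.6 and 16.8 CPM to 1.56 and 1.40 CPM. By 12 h, 6 of the 20 regulators were higher and 10 lower than at 0 h, beside 27.0% and 29.1% of all genes, and none of these shares was tested against the list.

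Reads of near-identical copies and of genes on the other strand limit some of these values, since the sources used here give neither the counting rule nor the use of strand. NRL, which overlaps PCK2 on the opposite strand, was counted at 56 to 180 reads per library and 42.4% of the PCK2 reads in all, and like PCK2 it was highest without 4sU. Where the 2 genes overlap, their reads cannot be told apart without strand. An unnamed gene opposite MTHFD2, ENSG00000264324, had 8.97% as many reads as MTHFD2. Among 16 pseudogenes of the enzymes, ASNSP1 had 2.20% of the reads of ASNS, PSPHP1 1.57% of those of PSPH, and the other 14 at most 0.153% of their parent gene.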

How the data were processed

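Of the 13 libraries, 12 form 6 chase times with 2 replicates each and 1 had no 4sU, grouped by their titles. Libraries were made from 3′ mRNA ends (QuantSeq) after RNA of Drosophila S2 cells was added at 5%, per the labels' protocols. The authors deposited raw counts per gene of all human reads, of nascent (labelled) human reads and of Drosophila reads. Named in the submitters' processing notes are the builds hg38 and dm6, bedtools, Trim Galore 0.6.5 and bcl2fastq 2.17.1.14. For the aligner, counter, annotation, strand setting and the conversions required of a nascent read, the entry is "not given in the sources used here". The 9 genes and the pathway lists were chosen with earlier results of these data known.

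CPM are counts scaled to a library total of 1000000, and fitted fold changes use TMM sizes. Decay was tested with edgeR 4.0.16 (R 4.3.3) over the chase libraries with the TMM size of the total library as offset, for genes with a mean of 5 CPM and 100 labelled counts in all. Total counts were tested with filterByExpr over 7 groups that share 1 spread. Adjusted p-values are Benjamini-Hochberg over all genes tested, at a false discovery rate of 0.05. Half-lives are quasi-Poisson fits of an exponential plus the labelled share without 4sU (Python 3.11.15, numpy 2.4.6, scipy 1.17.1), and an upper bound over 48 h left a lower limit alone. A count of 0 was read as allowing up to 3 counts.

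All 9 genes are named. From each list the 2 shortest and 2 longest half-lives could be named, and others were chosen after their values were seen; 1 gene is not reported here. The genes most like the group are the 5 with the highest Pearson r to the group's mean log2(CPM + 1). The alternatives tried were spike-in sizes, DESeq2 1.42.0 for sizes and for the test, each gene's own total as offset, other filters and time windows, the side of the spike-in split, the replicate number as a block, and leaving out single libraries. Tested on simulated data, the decay test on 9641 genes recovered 90.5% of 200 slopes changed by 0.1 log2 units per hour. The test of 12 h against 0 h recovered 6.28% of log2 changes of 0.5 (15244 genes) and 63.9% of changes of 1 (15269 genes), and 97.0% of half-life intervals over 200 genes held the true value. The simulated counts had the same spread in every gene, changed few genes and declined as plain exponentials. The real data differ in these respects, so these shares are not rates for the real libraries.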

Additional observations from a re-analysis of the deposited data

How the results depend on the processing

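The decay calls of the enzymes, 8 slower and 0 faster, kept these counts in 12 of 12 fits that left out a library. Scaling to the spike-in moved the counts of enzymes in total RNA: at 4 h 0 were lower instead of 3, at 12 h 3 were higher and 3 lower instead of 1 and 5, at 0 h against no 4sU 1 was lower instead of 3, and at 12 h against no 4sU 7 were higher instead of 4. On that scale the log2 change of MTHFD2 between 0 h and 12 h became 0.32 and that of PCK2 0.24, and against no 4sU at 12 h ALDH18A1 became 0.78 and PYCR1 0.66. With the side of the spike-in split as a factor, 5 enzymes were lower at 4 h. In total RNA only the 4 h libraries lie on both sides, so that factor rests on their difference alone. For PHGDH at 4 h it gave log2 −0.61, as did leaving out the second 4 h library. The slope of PCK2 relative to the median gene changed sign to 0.034 with its own total as offset and to 0.020 over 0 to 4 h. The members' median half-life of 7.07 h became 9.76 h with own totals, 9.63 h with spike-in sizes, 13.2 h over 0 to 4 h (where 3 of the 9 values are lower limits only) and 5.69 h over 2 to 12 h, and lay between 6.70 h and 7.75 h when a library was left out. Leaving out 1 library gave 1 to 5 enzymes lower at 4 h, and log2 changes of −0.055 to 0.18 for PSPH at 4 h, −0.15 to 0.037 for MTHFD2 at 12 h against 0 h and −0.19 to 0.0013 for ALDH18A1 at 12 h against no 4sU. The causes were not tested.

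Whether the replicate numbers pair the libraries could not be settled. Of 15 pairs of times, 3 had a correlation of deviations over 0.1 between same-numbered libraries (range −0.14 to 0.40, 9727 genes). With the replicate block 8 enzymes were slower, 0 were higher or lower at 1 h, 1 was higher and 3 lower at 4 h, and 1 was higher and 5 lower at 12 h. No paired analysis was possible for comparisons with the library without 4sU because it is a single library. Over all genes, counts over 1.5 times apart were 1761 slower and 1950 faster over 0 to 4 h, and 2134 faster with the side of that split in the fit, beside 3548 and 3470. At 1 h they were 81 higher and 26 lower without a filter, 87 and 17 with the side, and 12 lower with the block, beside 52 and 6. Spike-in sizes gave 1040 lower at 4 h (2525), 2226 lower at 12 h (4737), 2987 lower at 0 h against no 4sU (5172), and 10134 higher and 898 lower at 12 h against no 4sU (4260 and 4055). The side gave 2911 higher and 3118 lower at 12 h (4388 and 4737). Left-out libraries gave 29 to 87 higher and 3 to 19 lower at 1 h, and 1464 to 2527 lower at 4 h. Without a filter on low counts PYCR1 did not pass at 12 h against no 4sU (adjusted p = 0.0585 by edgeR), and a minimum of 500 labelled counts left PCK2 untested. Depth limits PCK2 and PHGDH most, with 5 and 8 and with 32 and 45 labelled reads at 12 h.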

Other observations

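ASNSP1, a transcribed pseudogene of ASNS, was counted at 61 and 70 reads at 0 h, or 1.65% to 2.01% of the reads of ASNS, at 43 to 149 reads in later chase libraries and at 8 reads without 4sU, or 0.548%. Its labelled share at 0 h was 54.1% to 60.0%, above the 34.9% and 35.3% of ASNS itself. NRL, opposite PCK2, had a labelled share of 39.3% to 58.2% at 0 h, above the 28.3% and 30.6% of PCK2, and 23.8% as many reads as PCK2 without 4sU against 41.8% to 48.6% at 0 h.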
